A study of Mus musculus with 9 samples.

Results

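The comparison was between activated mouse CD4+ T cells cultured with 10 μM and with 5 μM acacetin, a natural flavone. Libraries were taken by the concentration in their names, 3 at 10 μM and 3 at 5 μM, which are 6 of the 9 RNA-seq libraries of the series. The other 3 libraries, at 0 μM, served as no reference and entered the filter on low counts, the normalization and the estimate of the spread alone. The cells of all 6 libraries were labelled wild type (WT) and were stimulated on plates precoated with CD3/CD28 antibody at 5 μg/ml, with acacetin present for 3 days, when RNA was taken on day 3. The study's methods take naive CD4+ T cells from the spleen and lymph nodes of mice, and name male BALB/c mice for its animal work. There was no unstimulated culture in the comparison, so it describes concentrations within activated cells. The labels number the replicates as biological but do not say whether they came from separate mice or cultures, so the p-values measure the spread between these libraries, which may be technical. The study asked how acacetin acts on CD4+ T cells, and the comparison asks which transcripts stood at different levels at the upper and the lower concentration.

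A naive CD4+ T cell leaves its resting state when the T cell receptor and CD28 are engaged together. Signals through calcium and NFAT, MAP kinases and AP-1, and NF-κB then switch on cytokines and their receptors, the cell grows and divides, and genes that mark the naive state, such as Ccr7 and Tcf7, are turned down. Inhibitory receptors such as PD-1 and CTLA-4 and feedback inhibitors such as the dual-specificity phosphatases are switched on by the same signals and hold them back.

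The 6 libraries held 19664981 to 24410715 estimated counts, and mitochondrially encoded transcripts took 2.48% to 2.56% of them. Values below are CPM, counts per 1000000 of a library size scaled by TMM. The cells carried the markers of their label: the 10 CD4+ T cell markers summed to 3980 to 4160 CPM in every library, and Thy1 alone among them was called with all libraries, with a log2 fold change of -0.14. In contrast, 2 libraries held traces of other tissues and cells. In 10 μM replicate 1, the 10 lung markers summed to 116 CPM against 33.9 to 39.4 CPM in the other libraries, the 6 blood markers to 23.2 CPM against 1.39 to 1.85 CPM, and the 9 macrophage and monocyte markers to 15.8 CPM against 3.97 to 6.20 CPM. The last rise lay almost wholly in Lyz2, at 11.1 CPM against 0.397 to 1.51 CPM. Adgre1, Csf1r, Fcgr1 and Cd68 were not raised there, so macrophage traces rest on a single marker. In 5 μM replicate 2, the 11 liver markers summed to 29.9 CPM against 1.92 to 2.73 CPM. The counts called in each list are therefore given again without these 2 libraries, called doubtful below, and in the paragraphs on lists a dagger (†) marks a called gene that was not called without them. In bulk RNA, fewer cells of a kind and less RNA per cell cannot be told apart.

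At 10 μM, 1097 of 12185 tested genes (9.0%) differed from 5 μM at an adjusted p below 0.05 in edgeR's quasi-likelihood test with Benjamini-Hochberg adjustment, which is what "called" means below. Of these, 599 (4.92%) were higher and 498 (4.09%) lower at 10 μM. The differences were small. The median absolute log2 fold change was 0.186 among called genes and 0.0825 among all genes tested, and 906 called genes (82.6%) differed by less than 1.25-fold. Only 42 called genes passed the fold of 1.5 that the study used as its threshold, 20 higher and 22 lower, and 8 of them had a mean log2 CPM of 3 or more. Replicates lay close together (common biological coefficient of variation 3.65%), and the groups did not overlap in 1073 of the called genes (97.8%), against 25.9% of all genes tested. Calls depended on level: 0.84% of genes under a mean log2 CPM of 1 were called, 11.6% of those between 5 and 7, and 21.4% of those at 7 or more. Without 10 μM replicate 1 and 5 μM replicate 2, 386 genes were called higher and 291 lower, and 568 of the 1097 were called again, 334 higher and 234 lower. The total was 617 without 5 μM replicate 3, 716 without 5 μM replicate 1 and 719 without 10 μM replicate 3.

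**Figure D1:**
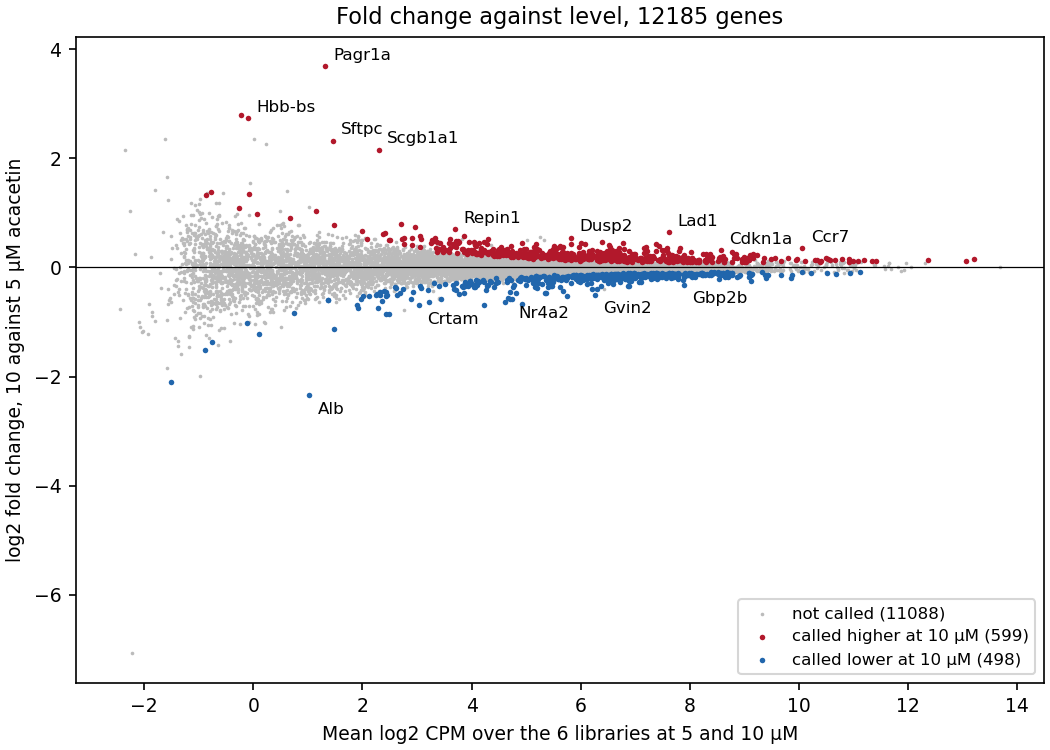
The log2 fold change at 10 against 5 μM is plotted against the mean log2 CPM over the 6 libraries for 12185 genes, with genes called higher in red (599), genes called lower in blue (498) and the rest in grey. Most called genes lie close to 0 at high levels, while the called genes with the largest folds, such as Hbb-bs, Sftpc, Scgb1a1, Alb and Pagr1a, have low levels.

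On the whole transcriptome the groups stood apart only a little. In a principal component analysis of the 6 libraries, the first component held 26.3% of the variance and placed the 5 μM libraries at -10.5, -10.6 and -13.3 and the 10 μM libraries at 12.7, 10.4 and 11.4. The second component held 21.4% and set 10 μM replicate 2 apart at -20.4. Distances between groups averaged 35.7 against 31.8 within 5 μM and 35.0 within 10 μM, and the exact permutation test of the grouping gave p = 0.1, the smallest that the 10 partitions of 3 against 3 allow.

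Among abundant genes, Lad1 showed the strongest evidence. The 12 largest rises here and the 12 largest falls that follow were chosen among genes whose groups did not overlap. Lad1, encoding the anchoring filament protein ladinin 1, was measured at 157, 164 and 149 CPM at 5 μM and 252, 237 and 247 CPM at 10 μM. Its lowest 10 μM library lay far above its highest 5 μM library, with a log2 fold change of 0.65 ± 0.04 (SE, edgeR adjusted p = 7.3e-09). Repin1, which encodes a zinc finger protein, stood at 11.2, 9.35 and 9.63 CPM at 5 μM and 16.9, 16.0 and 16.2 CPM at 10 μM and had the largest rise among genes of this level, 0.71 ± 0.13 (SE, edgeR adjusted p = 0.0024), which was called with an adjusted p of 0.037 without the 2 doubtful libraries. Dusp2, a nuclear phosphatase that inactivates ERK, read 44.6, 48.4 and 47.5 CPM at 5 μM and 70.0, 63.6 and 71.4 CPM at 10 μM. The 3 values at 10 μM were all higher, and the log2 fold change was 0.55 ± 0.05 (SE, edgeR adjusted p = 1.8e-06). Irf2bp2, a corepressor that binds IRF2, read 140.3, 149 and 139 CPM at 5 μM and 189, 188 and 202 CPM at 10 μM without overlap, a log2 fold change of 0.43 ± 0.04 (SE, edgeR adjusted p = 9.1e-07). Igsf23, an immunoglobulin superfamily gene, read 15.1, 16.5 and 17.5 CPM at 5 μM and 25.6, 21.4 and 23.8 CPM at 10 μM, and Slc6a9, the glycine transporter GlyT1, read 12.5, 12.3 and 10.5 CPM at 5 μM and 18.0, 19.4 and 15.5 CPM at 10 μM. Both sets were separated, with log2 fold changes of 0.53 and 0.57. The other genes among the 12 largest rises were Ccdc184 (0.58), Hid1 (0.53), Pglyrp2 (0.52), Ebi3 (0.50), Zfp750 (0.49), Dact3 (0.49) and Mt2 (0.54), of which Ebi3 encodes a subunit shared by IL-27 and IL-35 and Pglyrp2 a peptidoglycan-cleaving amidase.

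Of the genes that fell, Crtam, a surface receptor of activated T cells tied to cytotoxic CD4+ cells, showed the largest fall among abundant genes whose groups did not overlap. Its values were 10.9, 10.2 and 9.83 CPM at 5 μM and 6.07, 6.35 and 6.77 CPM at 10 μM, without overlap, and its log2 fold change was -0.69 ± 0.10 (SE, edgeR adjusted p = 1.4e-04). Mlkl, the executioner of necroptosis, stood at 11.2, 12.5 and 11 CPM at 5 μM and 6.62, 7.69 and 8.17 CPM at 10 μM. All of its 10 μM values were lower, -0.63 ± 0.09 (SE, edgeR adjusted p = 2.7e-04), and without the 2 doubtful libraries its log2 fold change was -0.48. Nr4a2, an orphan nuclear receptor induced by T cell receptor signals, was measured at 32.2, 32.0 and 31.9 CPM at 5 μM and 21.4, 22.2 and 20.5 CPM at 10 μM, a gap larger than the spread within either group (-0.59 ± 0.05 SE, edgeR adjusted p = 1.8e-06). Plek, encoding the protein kinase C substrate pleckstrin, read 31.3, 32.8 and 33.1 CPM at 5 μM and 22.3, 21.3 and 21.4 CPM at 10 μM. It was separated by a log2 fold change of -0.58 ± 0.05 (SE, edgeR adjusted p = 1.9e-06). Angptl2, a secreted angiopoietin-like protein, read 65.7, 63.2 and 64.7 CPM at 5 μM and 44.8, 45.4 and 44.8 CPM at 10 μM, and Gvin2, a large interferon-inducible GTPase, read 91.2, 89.8 and 91.6 CPM at 5 μM and 64.3, 66.3 and 62.4 CPM at 10 μM. Neither overlapped, and their log2 fold changes were -0.52 ± 0.04 (SE, edgeR adjusted p = 4.7e-07) and -0.50 ± 0.04 (SE, edgeR adjusted p = 2.1e-07). The remaining genes of this set were Lgals7 (-0.57), Slco4a1 (-0.57), Zan (-0.47), the inhibitory receptors Tigit and Pdcd1 described below, and Rps12l1 (-0.63), a near copy of a ribosomal protein gene whose count is uncertain because reads may be shared with the parent gene.

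**Figure D2:**
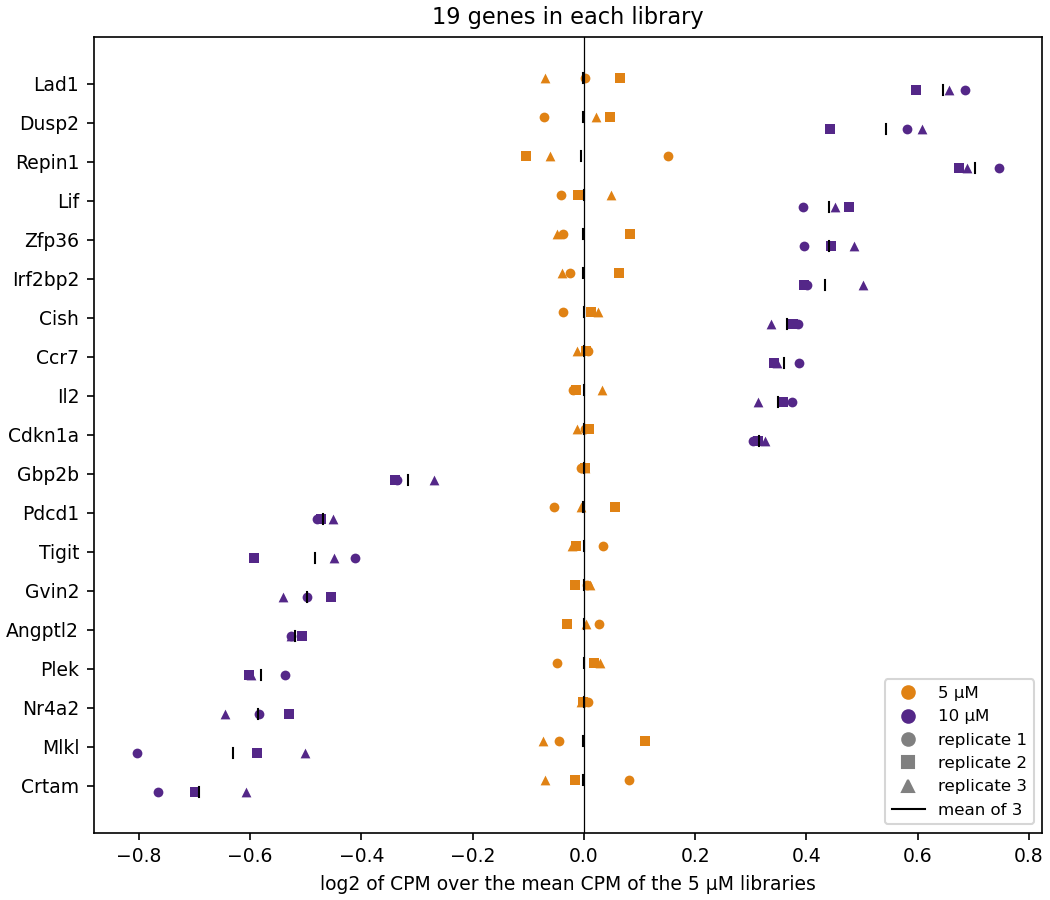
Each point is the log2 of a library's CPM over the mean CPM of the 5 μM libraries, for 19 genes in 3 libraries at 5 μM (orange) and 3 at 10 μM (purple), with marker shapes for the replicate numbers and black bars for the mean of each group's 3 libraries. The groups do not overlap in any of the 19 genes, from Repin1 at the upper end to Crtam at the lower. For those taken from the largest rises and falls, the choice required this.

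Transcription factors induced through the T cell receptor moved in both directions. Of 19 tested, 7 were called higher and 2 lower, with a list median of -0.01 (all genes tested: 0.00), 6 and 2 were called without the 2 doubtful libraries, and 4 were called higher without 5 μM replicate 1 or without 5 μM replicate 3. Nr4a1, the orphan receptor commonly read as a gauge of T cell receptor signal, stood at 146, 146 and 143 CPM at 5 μM and 164, 166 and 164 CPM at 10 μM, and its relative Nr4a2 fell as described above. Nr4a1 thus rose without overlap, by 0.19 ± 0.03 (SE, edgeR adjusted p = 3.5e-04) on the log2 scale, which is the scale of every rise below. Bhlhe40, a repressor needed for cytokine production, read 391, 399.9 and 391 CPM at 5 μM and 491, 476 and 477 CPM at 10 μM and rose (0.29 ± 0.03 SE, edgeR adjusted p = 2.6e-06). Irf8 read 185, 186 and 186 CPM at 5 μM and 164, 164 and 166 CPM at 10 μM and fell (-0.17 ± 0.03 SE, edgeR adjusted p = 7.4e-04). Of 13 AP-1 and BATF factors, 6 were called higher and 1 lower (median 0.13), and 5 and 1 without the 2 doubtful libraries. Jun stood at 175, 175 and 169.8 CPM at 5 μM and 211, 217 and 211 CPM at 10 μM, and Fos at 44.3, 41.6 and 43.3 CPM at 5 μM and 57.6, 55.2 and 55.5 CPM at 10 μM. These AP-1 subunits rose together, by 0.30 ± 0.03 (SE, edgeR adjusted p = 3.3e-06) and 0.38 ± 0.05 (SE, edgeR adjusted p = 4.0e-05). Maff, a small MAF protein, rose by 0.37, and Fosb, a second FOS protein, fell against the majority of the list, with 126, 139 and 132 CPM at 5 μM and 109, 107 and 118 CPM at 10 μM and a log2 fold change of -0.25 ± 0.04 (SE, edgeR adjusted p = 0.0011).

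Calls in a list of dual-specificity phosphatases, Sprouty and Spred proteins were all higher. Of 21 genes, 6 were called higher and 0 lower at edgeR's adjusted p, with 4 lower members at an unadjusted p below 0.05. The list held members not classed as MAP kinase phosphatases, such as Dusp11, and lacked Dusp8, which was called higher (0.74). DESeq2, run on the 6 libraries here and below, called 5 higher, and edgeR called 5 higher and 0 lower without the 2 doubtful libraries. Dusp5, an ERK phosphatase, was at 77.8, 79.9 and 79.5 CPM at 5 μM and 103, 103 and 109 CPM at 10 μM, and Dusp1, which acts on p38 and JNK as well, was at 81.1, 78.3 and 85.8 CPM at 5 μM and 110.1, 105 and 103 CPM at 10 μM. Their ranges did not overlap, and they rose by 0.41 ± 0.04 (SE, edgeR adjusted p = 2.4e-06) and 0.38 ± 0.04 (SE, edgeR adjusted p = 6.7e-06). Spry1, a Sprouty inhibitor of receptor to RAS signaling, rose by 0.30 ± 0.04 (SE, edgeR adjusted p = 6.4e-05).

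NF-κB genes made up the list with the largest called share. NF-κB activity induces its own inhibitors, and the list of 22 holds these along with subunits and direct targets. Of the 22, 16 were called higher and none lower, with a median log2 fold change of 0.171, 13 without the 2 doubtful libraries, and 11 when 5 μM replicate 3 alone was left out. No member had an unadjusted p below 0.05 in the lower direction, and DESeq2 called 14 higher. The called members were the subunits Nfkb2, Rela and Relb†, the inhibitors Nfkbia, Nfkbib, Nfkbid, Nfkbie† and Nfkbiz, the coactivator Bcl3, the kinase Ikbke, the ubiquitin editor Tnfaip3 and its partners Tnip1 and Tnip3†, the RNase Zc3h12a, the adaptor Traf1 and the adhesion molecule Icam1. Nfkb2, the p100 precursor, stood at 423, 425 and 413 CPM at 5 μM and 488, 495 and 514 CPM at 10 μM. Ikbke stood at 173, 173 and 183 CPM at 5 μM and 212, 210.5 and 215 CPM at 10 μM, and Nfkbiz, a nuclear IκB protein, at 86.4, 91.0 and 93.5 CPM at 5 μM and 105, 116 and 111 CPM at 10 μM. All 3 were higher in each 10 μM library, with log2 fold changes of 0.25 ± 0.03 (SE, edgeR adjusted p = 1.5e-05), 0.27 ± 0.03 (SE, edgeR adjusted p = 2.8e-05) and 0.29 ± 0.04 (SE, edgeR adjusted p = 2.1e-04). Tnfaip3, also known as A20, was at 351, 351 and 359 CPM at 5 μM and 403, 409 and 396 CPM at 10 μM and rose by 0.19 ± 0.03 (SE, edgeR adjusted p = 2.9e-04).

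Cytokine transcripts were called higher more often than lower. Of 23 cytokines and chemokines, 6 were called higher and 1 lower (median 0.145), and 5 and 1 without the 2 doubtful libraries. Il2, the growth factor of activated T cells, was measured at 90.8, 91.1 and 94.1 CPM at 5 μM and 119, 118 and 114 CPM at 10 μM. Lif, a cytokine of the IL-6 family, was measured at 53.7, 54.8 and 57.2 CPM at 5 μM and 72.6, 76.8 and 75.5 CPM at 10 μM, and Tnf at 26.6, 27.1 and 24.2 CPM at 5 μM and 37.3, 31.9 and 37.4 CPM at 10 μM. All were separated, with log2 fold changes of 0.35 ± 0.03 (SE, edgeR adjusted p = 3.2e-06), 0.44 ± 0.04 (SE, edgeR adjusted p = 2.6e-06) and 0.45 ± 0.07 (SE, edgeR adjusted p = 2.4e-04). Ltb, lymphotoxin beta, rose by 0.22 ± 0.03 (SE, edgeR adjusted p = 1.1e-04). Ccl3, a chemokine that draws effector cells, went the other way at 16.9, 13 and 15.7 CPM at 5 μM and 11.3, 11.3 and 11.6 CPM at 10 μM, a log2 fold change of -0.40 ± 0.09 (SE, edgeR adjusted p = 0.0062). Of 21 TNF family ligands and receptors, 6 were called higher and 0 lower, with 1 lower member at an unadjusted p below 0.05. DESeq2 called 5 higher. The costimulatory ligand Tnfsf9 (4-1BBL) rose by 0.46, the receptor Tnfrsf18 (GITR) by 0.22, the ligand Tnfsf8 by 0.17 and the death receptor Fas† by 0.21. Without the 2 doubtful libraries 3 members of the list were called higher and 0 lower.

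Among 26 cytokine receptors, 6 were called higher and 0 lower, with 2 lower members at an unadjusted p below 0.05 in edgeR, and 3 were called higher by DESeq2. Ifngr2, a chain of the interferon-γ receptor, had 40.1, 38.0 and 41.7 CPM at 5 μM and 52.9, 49.9 and 48.7 CPM at 10 μM and rose by 0.34 ± 0.06 (SE, edgeR adjusted p = 8.2e-04). Il17ra rose by 0.20, Ifnar1† by 0.14 and Il21r by 0.11. This count was 3, with 1 called lower, without the 2 doubtful libraries, 2 when 5 μM replicate 3 was left out and 3 when either other 5 μM library was. In the JAK-STAT list, 6 of 23 were called higher, 5 without the 2 doubtful libraries. Cish, a STAT5-induced inhibitor of IL-2 and T cell receptor signaling, was at 193, 200.2 and 202 CPM at 5 μM and 259, 258 and 251 CPM at 10 μM. It was separated with a log2 fold change of 0.37 ± 0.03 (SE, edgeR adjusted p = 4.7e-07). Stat5a, the factor that IL-2 activates, was at 299, 303 and 307 CPM at 5 μM and 348, 370.4 and 364 CPM at 10 μM and rose by 0.25 ± 0.03 (SE, edgeR adjusted p = 3.0e-05), and the STAT5-induced kinases Pim1 and Pim2 rose by 0.25 and 0.19.

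Calls among genes of the naive and quiescent state were all higher. Of 30, 16 were called higher and none lower (median 0.128), 11 without the 2 doubtful libraries, 8 when 5 μM replicate 1 alone was left out and 10 when 5 μM replicate 3 was. A single member had an unadjusted p below 0.05 in the lower direction, and DESeq2 called 13 higher. Ccr7, the receptor that guides T cells into lymph nodes, was measured at 951, 948 and 938 CPM at 5 μM and 1237, 1199 and 1203 CPM at 10 μM. Its spread within either group was small beside the gap, and the log2 fold change was 0.36 ± 0.03 (SE, edgeR adjusted p = 1.2e-07). The chromatin organizer Satb1 had 559, 562 and 551 CPM at 5 μM and 661, 659 and 641 CPM at 10 μM, and the transcription factor Tcf7 had 282, 286 and 271 CPM at 5 μM and 327, 320.1 and 344 CPM at 10 μM. Neither overlapped, and the log2 fold changes were 0.23 ± 0.03 (SE, edgeR adjusted p = 1.4e-05) and 0.24 ± 0.03 (SE, edgeR adjusted p = 1.1e-04). Btg2, an antiproliferative factor that promotes mRNA deadenylation, was at 30.5, 32.4 and 31.2 CPM at 5 μM and 39.6, 41.0 and 45.4 CPM at 10 μM and rose by 0.42 ± 0.06 (SE, edgeR adjusted p = 1.4e-04). Other called members included S1pr1†, Lef1†, Foxo1, Klf3, Pik3ip1, Btg1, Ypel3, Slfn1†, Ms4a4b†, Igfbp4† and Actn1. In the list of chemokine receptors and adhesion molecules, 3 of 24 were called (12.5%, near the 9.0% of all genes), all higher: Ccr8 (0.43), Cd2 (0.19) and Cxcr4† (0.54). Without the 2 doubtful libraries, 2 were called.

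Genes of a mixed list of inhibitory receptors and costimulators were called lower more often than higher. Of 23 inhibitory receptors and costimulators, 6 were called lower and 2 higher, with 19 of 23 log2 fold changes below 0 and a median of -0.10, and 4 were called lower and 1 higher without the 2 doubtful libraries. Pdcd1, encoding PD-1, was measured at 46.3, 49.9 and 47.8 CPM at 5 μM and 34.4, 34.6 and 35.1 CPM at 10 μM. Tigit, a receptor for nectin-like ligands, was measured at 16.4, 15.9 and 15.8 CPM at 5 μM and 12, 10.6 and 11.7 CPM at 10 μM, and Slamf6 at 98.0, 90.6 and 92.3 CPM at 5 μM and 79.0, 72.1 and 70.6 CPM at 10 μM. In each of the 3 genes every 10 μM library lay below every 5 μM library, with log2 fold changes of -0.47 ± 0.05 (SE, edgeR adjusted p = 3.3e-06), -0.48 ± 0.07 (SE, edgeR adjusted p = 3.1e-04) and -0.34 ± 0.04 (SE, edgeR adjusted p = 6.6e-05). Ctla4† had 120.3, 123 and 125 CPM at 5 μM and 104, 109 and 113 CPM at 10 μM and a log2 fold change of -0.17 ± 0.04 (SE, edgeR adjusted p = 0.0041), with an adjusted p of 0.058 without the 2 doubtful libraries. Lag3, another inhibitory receptor, rose by 0.14, and the early activation marker Cd69† by 0.10, with an adjusted p of 0.068 without the 2 doubtful libraries. The inhibitory receptors Havcr2, Btla, Vsir and Cd160 were not called with all libraries.

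Cytotoxic genes and lineage regulators were called in both directions. Of 16 cytotoxic genes, 3 were called lower and 1 higher (25%, against 9.0% of all genes), and 2 and 1 without the 2 doubtful libraries. Beside Crtam, the protease Gzmb had 41.5, 40.4 and 40.1 CPM at 5 μM and 32.1, 30.1 and 32.9 CPM at 10 μM and fell, with a log2 fold change of -0.36 ± 0.05 (SE, edgeR adjusted p = 3.1e-04), Cst7†, a cathepsin inhibitor, had a log2 fold change of -0.14 with an adjusted p of 0.14 without the 2 doubtful libraries, and Serpinb6b rose by 0.25. Among 19 regulators of T helper lineages, 3 were called higher and 2 lower (26.3%), and 3 and 1 without the 2 doubtful libraries. Gata3, the regulator of T helper 2 cells, was measured at 53.8, 56.1 and 54.4 CPM at 5 μM and 69.0, 71.7 and 71.6 CPM at 10 μM. Tbx21†, encoding T-bet, the regulator of T helper 1 cells, was measured at 20.3, 18.3 and 17.4 CPM at 5 μM and 15.9, 14.9 and 15.4 CPM at 10 μM. Gata3 rose (0.37 ± 0.04 SE, edgeR adjusted p = 2.3e-05) and Tbx21† fell (-0.28 ± 0.07 SE, edgeR adjusted p = 0.018), the latter with an adjusted p of 0.057 without the 2 doubtful libraries. The repressor Gfi1 rose by 0.26, and Zbtb32, a repressor induced by activation, had a log2 fold change of -0.36.

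All but 1 of the calls among interferon-induced genes were lower. Of 56 tested, 14 were called lower and 1 higher, 43 had a log2 fold change below 0, and the median was -0.132. Without the 2 doubtful libraries 11 were called lower and 0 higher, and DESeq2 on the 6 libraries called 11 lower. The called genes were mostly GTPases that act against intracellular pathogens: the guanylate-binding proteins Gbp2, Gbp3, Gbp4, Gbp6 and Gbp7, the immunity-related GTPases Iigp1, Irgm1, Tgtp1 and Tgtp2, and Gvin1†. The others were Ifih1, Oas3†, Ifitm3† and Parp14. Gbp7 was measured at 88.1, 88.6 and 94.1 CPM at 5 μM and 68.6, 71.9 and 65.8 CPM at 10 μM. Iigp1 was measured at 78.2, 88.3 and 88.6 CPM at 5 μM and 66.4, 67.2 and 60.6 CPM at 10 μM, and Tgtp2 at 105, 111 and 106 CPM at 5 μM and 85.5, 88.5 and 88.4 CPM at 10 μM. All 3 were lower in each 10 μM library, with log2 fold changes of -0.39 ± 0.04 (SE, edgeR adjusted p = 5.2e-06), -0.40 ± 0.05 (SE, edgeR adjusted p = 6.8e-05) and -0.30 ± 0.03 (SE, edgeR adjusted p = 1.7e-05). Tgtp1 read 157, 142 and 153 CPM at 5 μM and 127, 123 and 125 CPM at 10 μM, also without overlap (-0.27 ± 0.04 SE, edgeR adjusted p = 8.8e-05), but it is a near copy of Tgtp2, so how reads were divided between them is uncertain. Gbp2b, a guanylate-binding protein outside the list, was at 263, 264 and 264 CPM at 5 μM and 209, 208 and 219 CPM at 10 μM. It had one of the 10 smallest adjusted p values and fell, with a log2 fold change of -0.31 ± 0.03 (SE, edgeR adjusted p = 1.8e-06). The exception was Isg15†, a ubiquitin-like protein, at 6.15, 6.10 and 6.25 CPM at 5 μM and 9.83, 7.59 and 9.48 CPM at 10 μM. It was called higher (0.54 ± 0.13 SE, edgeR adjusted p = 0.011) and had an adjusted p of 0.11 without the 2 doubtful libraries.

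Several of the called interferon-induced genes share a sequence feature. The interferon-stimulated response element, the site of ISGF3 and IRF factors, was searched as GAAANNGAAA on both strands in the 250 bases before the gene start, with RefSeq promoters of build GRCm38.p6, a build other than the one the submitters name for the counts (GRCm39). A promoter was matched for 9566 of the 12185 genes tested, and 302 of these (3.16%) held the element. In the interferon list 19 of 39 matched genes (48.7%) held it, and so did 8 of the 10 called genes with a match. The 8 include the near copies Tgtp1 and Tgtp2. The element is named for interferon-induced genes, so its share in such a list is no result of the comparison. The 100 bases before the start of 4 called genes are shown on the gene's strand, with the element in capitals, which is TTTCNNTTTC where it lies on the opposite strand. Isg15†, which was higher, holds overlapping copies. A κB site, searched as GGGANNTTCC in the same way, was found in 130 of the 9566 matched promoters (1.36%). It was in 3 of 19 matched genes of the NF-κB list (15.8%) and in 2 of 14 called ones. A match describes letters and is not evidence that a factor binds.
Gbp7 (chr3:142530236-142530335, plus strand, element from 53 bases before the start): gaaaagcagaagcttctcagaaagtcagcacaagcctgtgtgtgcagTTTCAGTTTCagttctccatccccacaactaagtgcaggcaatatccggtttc
Tgtp1 (chr11:48992247-48992346, minus strand, 77 bases before): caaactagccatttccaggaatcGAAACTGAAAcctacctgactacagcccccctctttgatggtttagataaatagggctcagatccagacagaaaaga
Tgtp2 (chr11:49064213-49064312, minus strand, 70 bases before): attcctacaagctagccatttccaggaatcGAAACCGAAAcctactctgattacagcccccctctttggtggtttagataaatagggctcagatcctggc
Isg15 (chr4:156200819-156200918, minus strand, from 78 bases before): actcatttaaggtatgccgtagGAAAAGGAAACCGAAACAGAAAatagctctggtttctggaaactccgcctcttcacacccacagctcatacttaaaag

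Antigen presentation genes were called mostly in the other direction. Of 19 MHC class I presentation genes, 5 were called higher and 1 lower, as they were without the 2 doubtful libraries, and 8 were called higher without 10 μM replicate 2. H2-K1 and H2-D1, the classical class I heavy chains, were measured at 1431, 1402 and 1378 CPM at 5 μM and 1620.4, 1531 and 1519 CPM at 10 μM and at 1844, 1832 and 1840.2 CPM at 5 μM and 2120.0, 2003 and 2018 CPM at 10 μM. They rose by 0.15 ± 0.03 (SE, edgeR adjusted p = 0.0021) and 0.15 ± 0.03 (SE, edgeR adjusted p = 0.0013). The nonclassical H2-Q4 and H2-Q7 rose by 0.18 and 0.20, and since the H2 genes are similar in sequence, each count is uncertain. Erap1, the peptide-trimming protease, fell, with a log2 fold change of -0.18. Of 8 GIMAP GTPases, which support lymphocyte survival, 3 were called higher: Gimap6 (0.19), Gimap3 (0.16) and Gimap9† (0.14), and 2 were without the 2 doubtful libraries.

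**Figure D3:**
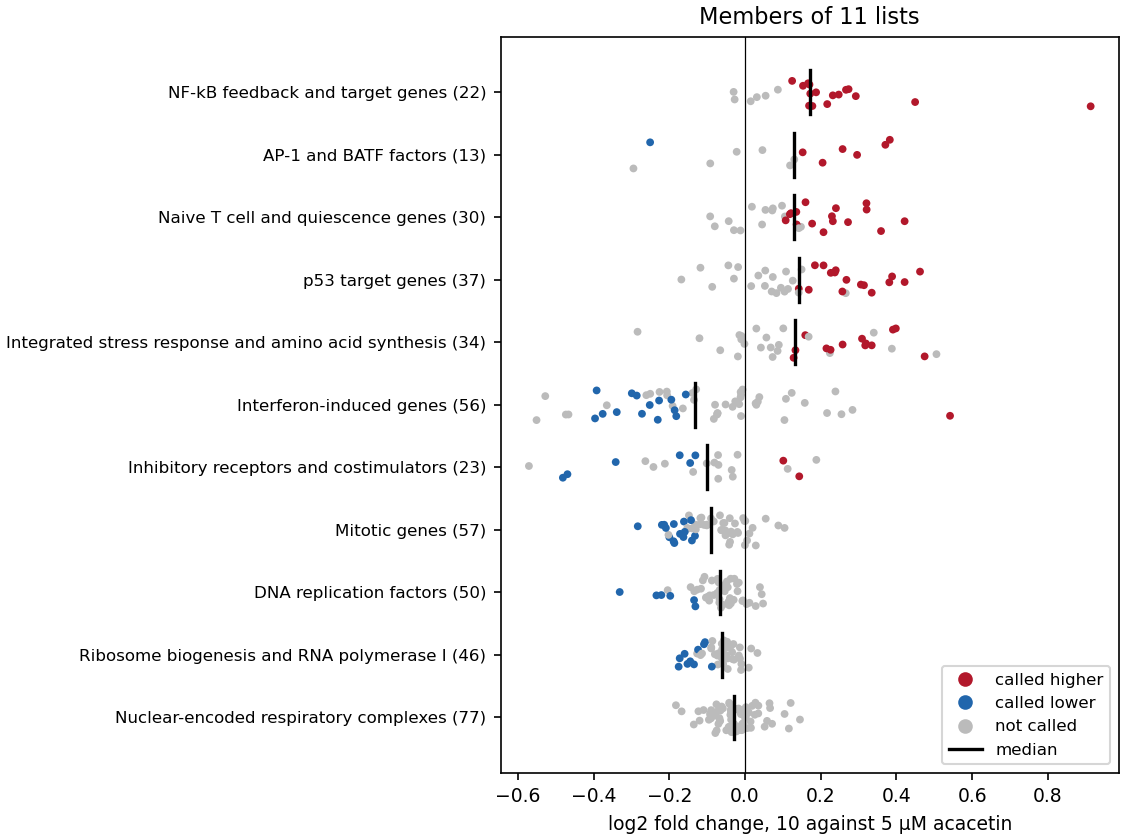
Each point is the log2 fold change of a tested member at 10 against 5 μM in 11 lists, red where called higher, blue where called lower and grey where not called, and the black bar is the list's median. The NF-κB list (median 0.171) lies mostly to the right of 0 and the interferon list (median -0.132) mostly to the left. The 77 respiratory genes lie close to 0 with no call, 55 of them below 0 and 22 above.

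Calls among p53 targets were all higher. Of 37, 16 were called higher and none lower, with 31 log2 fold changes above 0 and a median of 0.142. The count was 11 without the 2 doubtful libraries, DESeq2 called 13 higher, and 2 members had an unadjusted p below 0.05 in the lower direction. Cdkn1a, the cell cycle inhibitor p21, was measured at 342, 344 and 339 CPM at 5 μM and 422, 424 and 428 CPM at 10 μM. Plk2, a stress-induced kinase, was measured at 73.4, 67.8 and 72.4 CPM at 5 μM and 102, 98.3 and 93.5 CPM at 10 μM, and Bbc3, the BH3-only protein PUMA, at 156, 156 and 142 CPM at 5 μM and 198, 191 and 205 CPM at 10 μM. The groups were separated in all 3, with log2 fold changes of 0.31 ± 0.03 (SE, edgeR adjusted p = 7.3e-07), 0.46 ± 0.04 (SE, edgeR adjusted p = 2.6e-06) and 0.39 ± 0.04 (SE, edgeR adjusted p = 4.5e-06). Phlda3, an AKT inhibitor, rose by 0.31 ± 0.03 (SE, edgeR adjusted p = 1.6e-05). The remaining called members were Btg2, Perp†, Sesn2, Plk3, Dcxr†, Trp53inp1, Pmaip1†, Psrc1, Fas†, Tnfrsf10b†, Pidd1 and Gtse1.

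The integrated stress response, in which the factor ATF4 raises amino acid supply and stress regulators, showed a similar count. Of 34 genes, 13 were called higher and none lower (median 0.131), and 11 without the 2 doubtful libraries. DESeq2 called 12 higher, and 1 member had an unadjusted p below 0.05 in the lower direction. Ddit4, an mTORC1 inhibitor, was at 199.5, 202 and 198 CPM at 5 μM and 253, 245 and 247 CPM at 10 μM. Sesn2, a leucine sensor that restrains mTORC1, was at 96.8, 104 and 95.8 CPM at 5 μM and 125, 120.0 and 129 CPM at 10 μM, and Ddit3, the factor CHOP, at 65.5, 68.7 and 63.9 CPM at 5 μM and 83.2, 80.6 and 83.3 CPM at 10 μM. All were higher without overlap, by 0.31 ± 0.03 (SE, edgeR adjusted p = 2.4e-06), 0.33 ± 0.04 (SE, edgeR adjusted p = 4.5e-05) and 0.32 ± 0.04 (SE, edgeR adjusted p = 1.0e-04). Pck2, a mitochondrial enzyme of phosphoenolpyruvate synthesis, rose by 0.39 ± 0.05 (SE, edgeR adjusted p = 4.7e-05). In contrast, 2 of 25 genes of the endoplasmic reticulum's unfolded protein response were called higher and 2 lower (16.0%, against 9.0% of all genes). Herpud1 (0.31) and Edem2 (0.17) rose, and the chaperone Hsp90b1 (-0.17) and the sensor Atf6† (-0.17) fell. Without the 2 doubtful libraries 2 were called higher and 1 lower, and Atf6† had an edgeR adjusted p of 0.098. Of 30 heat shock proteins and chaperonins, 8 were called lower and 0 higher, with 2 members at an unadjusted p below 0.05 in the higher direction in edgeR and 5 called lower by DESeq2, and 8 lower and 0 higher without the 2 doubtful libraries. Hsp90aa1 stood at 865, 844 and 857 CPM at 5 μM and 781, 787 and 766 CPM at 10 μM and fell, with a log2 fold change of -0.14 ± 0.03 (SE, edgeR adjusted p = 0.0019), as did Hspa4l (-0.19), Hspd1 (-0.15) and Hspa4 (-0.13). The count of heat shock genes was 4 when 5 μM replicate 1 was left out and 5 when 10 μM replicate 3 was.

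Genes of cell death were called in both directions. Of 33 BCL2 family and caspase genes, 5 were called higher and 1, Mlkl, lower (18.2%, against 9.0% of all genes). Without the 2 doubtful libraries 2 were called higher and 1 lower. The higher count was also 2 without 5 μM replicate 2 alone, and 3 without 5 μM replicate 3. Bcl2l1, encoding the survival protein BCL-XL, was measured at 169, 173 and 164 CPM at 5 μM and 213, 209 and 226 CPM at 10 μM. It rose by 0.36 ± 0.03 (SE, edgeR adjusted p = 2.6e-06), alongside the death-promoting Bbc3, and Cflar†, an inhibitor of caspase-8, rose by 0.14.

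Calls in the list of mitotic genes were all lower. Of 57 mitotic genes, 15 were called lower and none higher, 49 had a log2 fold change below 0, and the median was -0.09. No member had an unadjusted p below 0.05 in the higher direction, DESeq2 called 13 lower, and 11 were called lower without the 2 doubtful libraries. Top2a, the topoisomerase of dividing cells, was measured at 716, 704 and 727 CPM at 5 μM and 618, 648 and 620.5 CPM at 10 μM. Cenpf, a kinetochore protein, was measured at 63.6, 60.4 and 63.9 CPM at 5 μM and 49.2, 53.6 and 51.5 CPM at 10 μM, and Ccnb1, cyclin B1, at 138, 132 and 132 CPM at 5 μM and 119, 118 and 113 CPM at 10 μM. The 10 μM values were all lower, with log2 fold changes of -0.19 ± 0.03 (SE, edgeR adjusted p = 2.1e-04), -0.28 ± 0.04 (SE, edgeR adjusted p = 3.9e-04) and -0.20 ± 0.03 (SE, edgeR adjusted p = 7.9e-04). Kif20a, a kinesin of cytokinesis, had -0.21 ± 0.03 (SE, edgeR adjusted p = 7.0e-04). The cell cycle homology region, written TTTGAA and searched on both strands of the same 250 bases, is bound by the complexes that time late cell cycle genes. It was found in 1227 of the 9566 matched promoters (12.8%), in 16 of 47 matched mitotic genes (34.0%) and in 6 of 12 called ones. The copy nearest to the start of Top2a lies 23 bases before it on the opposite strand and is shown in capitals.
Top2a (chr11:99024190-99024289, minus strand): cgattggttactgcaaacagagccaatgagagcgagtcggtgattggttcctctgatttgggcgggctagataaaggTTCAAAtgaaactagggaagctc

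Calls among DNA replication factors were all lower, and those in nucleotide synthesis went both ways. Of 50 replication factors, 7 were called lower and none higher, with 44 log2 fold changes below 0. DESeq2 called 6 lower, as did edgeR without the 2 doubtful libraries, and no member had an unadjusted p below 0.05 in the higher direction. Mcm4, a subunit of the replicative helicase, stood at 396, 400.1 and 404 CPM at 5 μM and 366, 362 and 365 CPM at 10 μM and fell (-0.13 ± 0.03 SE, edgeR adjusted p = 0.0028), as did the polymerase subunit Pola1 (-0.22), the adaptor Wdhd1 (-0.23) and the licensing inhibitor Gmnn (-0.20). Of 32 nucleotide synthesis genes, 8 were called lower and 2 higher, 5 and 1 without the 2 doubtful libraries, and 5 lower without 5 μM replicate 1. Rrm1, the large subunit of ribonucleotide reductase, stood at 444, 447 and 453 CPM at 5 μM and 411, 407 and 406 CPM at 10 μM and fell (-0.14 ± 0.03 SE, edgeR adjusted p = 0.0021), with Shmt1 (-0.17) and Paics (-0.13). The mitochondrial folate enzymes Shmt2 and Mthfd2†, both also in the stress response list, rose by 0.16 and 0.13. Among 26 G1 cyclins, inhibitors and E2F factors (15.4% called, against 9.0% of all genes), Cdkn1a and Cdkn1b† (0.13) rose. The phosphatase Cdc25a† (-0.13) and the retinoblastoma relative Rbl1† (-0.14) fell. The last 3 were not called without the 2 doubtful libraries. Of 46 genes of ribosome biogenesis, 10 were called lower and none higher, with 43 below 0 and none at an unadjusted p below 0.05 in the higher direction. DESeq2 called 5 lower, as were 5 without the 2 doubtful libraries and 5 without either 5 μM replicate 2 or 5 μM replicate 3. Every other single library moved this count to between 6 and 11. Ddx21, a nucleolar helicase, stood at 504, 489 and 490.2 CPM at 5 μM and 423, 452 and 440.4 CPM at 10 μM and fell (-0.17 ± 0.03 SE, edgeR adjusted p = 8.4e-04), with Wdr43 (-0.18), Heatr1 (-0.16) and Nop58 (-0.14).

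The study placed acacetin's action at the mitochondrial respiratory chain, so the transcripts of its complexes were of interest. Its evidence included gene set analysis against 0 μM, docking, binding, complex II activity, oxygen consumption and rescue with a complex II substrate. The comparison here is of 10 with 5 μM, without the 0 μM reference, and does not test that evidence. Of 77 nuclear-encoded genes of the respiratory complexes, none was called in either direction by edgeR or by DESeq2 on the 6 libraries, while 13 lower and 3 higher had an unadjusted p below 0.05. Their log2 fold changes ran from -0.18 to 0.15 with a median of -0.03, 55 below 0 and 22 above. Without the 2 doubtful libraries 6 were called lower and the median was -0.07. Sdhb, the iron-sulfur subunit of complex II, was measured at 109.7, 105 and 104 CPM at 5 μM and 109, 94.8 and 102 CPM at 10 μM. The ranges overlapped, and the log2 fold change was -0.07 ± 0.04 (SE, edgeR adjusted p = 0.39). Among 13 mitochondrially encoded transcripts, mt-Nd1, a complex I subunit, was the single called gene, at 2041, 2038 and 2010.4 CPM at 5 μM and 1919, 1924 and 1865 CPM at 10 μM (-0.09 ± 0.02 SE, edgeR adjusted p = 0.02), and 2 were called lower without the 2 doubtful libraries. In the tricarboxylic acid cycle list, Me2 (-0.15) was the single called gene of 29 (3.45%), and 2 were called lower without the 2 doubtful libraries. Fatty acid oxidation gave 4 called lower of 30 (13.3%, against 9.0% of all genes) and 3 without the 2 doubtful libraries, and these 4 were the peroxisomal transporter Abcd3 (-0.31), Acsl4 (-0.17), Acsl5† (-0.12) and Cpt1a† (-0.13).

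Glycolytic and lipid genes were called in both directions. Of 36 genes of glycolysis and HIF targets, 6 were called lower and 3 higher, 4 and 3 without the 2 doubtful libraries, and 3 lower when any single 5 μM library was left out. The lactate transporter Slc16a1 was measured at 129, 133 and 136 CPM at 5 μM and 112, 104 and 99.2 CPM at 10 μM. It fell without overlap (-0.33 ± 0.04 SE, edgeR adjusted p = 2.1e-05), as did the related Slc16a3 (-0.21), while Eno2 (0.28), Ndrg1 (0.18) and Vegfa (0.21) rose. Ldha, counted in the MYC network as well, was at 2296, 2266 and 2290.4 CPM at 5 μM and 2211, 2116 and 2136 CPM at 10 μM and fell by a small step (-0.08). Of 36 cholesterol synthesis genes and SREBP targets, 7 were called lower and 2 higher, 5 and 1 without the 2 doubtful libraries, and from 3 to 10 lower with single libraries left out (3 without 10 μM replicate 3 and 4 without 5 μM replicate 3). Hmgcs1, which makes HMG-CoA, was at 125, 128 and 129 CPM at 5 μM and 113, 110.5 and 106 CPM at 10 μM and fell (-0.21 ± 0.03 SE, edgeR adjusted p = 3.2e-04), with Cyp51 (-0.17) and Acly† (-0.12), whereas the desaturase Scd2 (0.15) and the regulator Srebf1† (0.13) rose. The receptor Nr1h2 (0.17) and the lipid handling genes Abca7 (0.18) and Npc2 (0.14) were called higher among 11 genes of LXR and cholesterol efflux, and 3 were without the 2 doubtful libraries.

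Genes of growth control were called higher more often than lower. Of 37 genes of PI3K and mTORC1, 7 were called higher and 1 lower, and 7 and 0 without the 2 doubtful libraries, with Trib2 (0.30), a pseudokinase, and the kinase subunit Pik3cd (0.16) beside Ddit4 and Sesn2, and the phosphatase Inpp4b† (-0.18) lower with overlapping groups. In the MYC network, 3 of 16 genes were called higher and 1 lower, and 3 and 2 without the 2 doubtful libraries. The antagonists Mxd4 and Mxd1 rose by 0.39 ± 0.06 (SE, edgeR adjusted p = 2.9e-04) and 0.20, and Myc itself, at 140.4, 148 and 137 CPM at 5 μM and 155, 159.7 and 162 CPM at 10 μM, rose by 0.16 ± 0.03 (SE, edgeR adjusted p = 0.0064). Of 23 genes of mRNA decay by zinc finger proteins, 5 were called higher and 1, Cnot6l† (-0.15), lower (median 0.02), and 6 and 0 without the 2 doubtful libraries. Zfp36, tristetraprolin, which binds cytokine messages, was measured at 92.1, 100.1 and 91.4 CPM at 5 μM and 124, 129 and 132 CPM at 10 μM. Its relative Zfp36l1 was measured at 163, 169.7 and 168 CPM at 5 μM and 206, 217 and 205 CPM at 10 μM, and both were separated, by 0.44 ± 0.04 (SE, edgeR adjusted p = 2.0e-06) and 0.33 ± 0.03 (SE, edgeR adjusted p = 3.2e-06). Of 40 autophagy and lysosome genes, 8 were called higher and 0 lower, with 2 lower members at an unadjusted p below 0.05 in edgeR. DESeq2 called 6 higher, and 4 were called without the 2 doubtful libraries or without 5 μM replicate 1, and 5 without either other 5 μM library. The lysosomal channel Mcoln1 rose by 0.37, Atg2a by 0.26, the kinase Ulk1 by 0.23 and the receptor Sqstm1 by 0.19.

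The called metallothioneins rose and the called zinc importers fell. Mt2 and Mt1, the metallothioneins that hold zinc and copper, were at 8.92, 8.33 and 7.61 CPM at 5 μM and 12, 11.7 and 12.5 CPM at 10 μM and at 14.2, 13.5 and 11.9 CPM at 5 μM and 20.4, 17.8 and 16.6 CPM at 10 μM. Both rose, by 0.54 ± 0.10 (SE, edgeR adjusted p = 0.0019) and 0.46 ± 0.09 (SE, edgeR adjusted p = 0.0025). The zinc importers Slc39a10 and Slc39a8 were at 33.3, 32.7 and 32.5 CPM at 5 μM and 24.0, 24.1 and 23.5 CPM at 10 μM and at 31.9, 29.7 and 30.1 CPM at 5 μM and 26.9, 25.3 and 21.0 CPM at 10 μM. Both fell, with log2 fold changes of -0.46 ± 0.05 (SE, edgeR adjusted p = 2.4e-05) and -0.33 ± 0.07 (SE, edgeR adjusted p = 0.0068). Mt2, Mt1, Slc39a10 and Slc39a8 were all the calls among the 18 tested genes of this list. Without the 2 doubtful libraries 2 were higher and 2 lower as well. Outside the list, the zinc transporter gene Slc30a3†, with mean CPM of 0.506 at 5 μM and 0.113 at 10 μM, was called lower (-2.11). Of 31 NRF2 targets and thiol redox genes, 2 (6.45%, against 9.0% of all genes) were called, Txnrd1† (-0.12) and G6pdx† (-0.11), both lower. Their adjusted p was 0.14 and 0.25 without the 2 doubtful libraries, where the list also held 2 lower calls. Among the 7 tested genes of the aryl hydrocarbon receptor, a sensor of many flavones, edgeR and DESeq2 called none, and 1 had an unadjusted p below 0.05.

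Genes at the start of T cell receptor signaling were called in both directions. Of 39, 3 were called higher and 4 lower (17.9%, against 9.0% of all genes), with the same counts without the 2 doubtful libraries. The calls included the kinase Zap70 at 489, 495 and 485 CPM at 5 μM and 536, 551 and 531 CPM at 10 μM (0.14 ± 0.03 SE, edgeR adjusted p = 0.0023), the adaptors Grap (0.28) and Lcp2 (-0.13) and the GTPase-activating protein Tagap (0.21). Of 29 ion channel and calcium genes, 3 were called (10.3%, near the 9.0% of all genes). The store-operated channel genes Orai1 (0.20) and Orai2 (0.17) and the channel subunit Cacnb3 (0.32) rose, and 4 genes were called higher without the 2 doubtful libraries. In 20 aminoacyl-tRNA synthetases, Cars† (0.19), Sars† (0.11) and Nars† (0.10) rose, and Dars† (-0.12) and Farsb (-0.13) fell with all libraries. Without the 2 doubtful libraries 1 was called lower and the adjusted p of Cars†, Sars†, Nars† and Dars† was 0.052, 0.13, 0.14 and 0.13. Of 35 actin and effector genes (11.4% called, near the 9.0% of all genes), Ahnak (0.16) rose and Actr2 (-0.12), Tpm4† (-0.13) and Lgals1 (-0.14) fell, with 1 higher and 4 lower without the 2 doubtful libraries. The linker histone H1f0 (-0.19) fell as the single call of 11 replication-independent and linker histone genes (9.09%). Nr1d2† (0.23) and Bhlhe40 were the calls, both higher, among 17 circadian genes (11.8%). Both shares lay near the 9.0% of all genes. Without the 2 doubtful libraries 2 genes of this histone list were called lower and 2 circadian genes higher. Outside that histone list, H4c11†, with mean CPM of 0.793 at 5 μM and 0.308 at 10 μM, was called lower (-1.36).

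**Figure D4:**
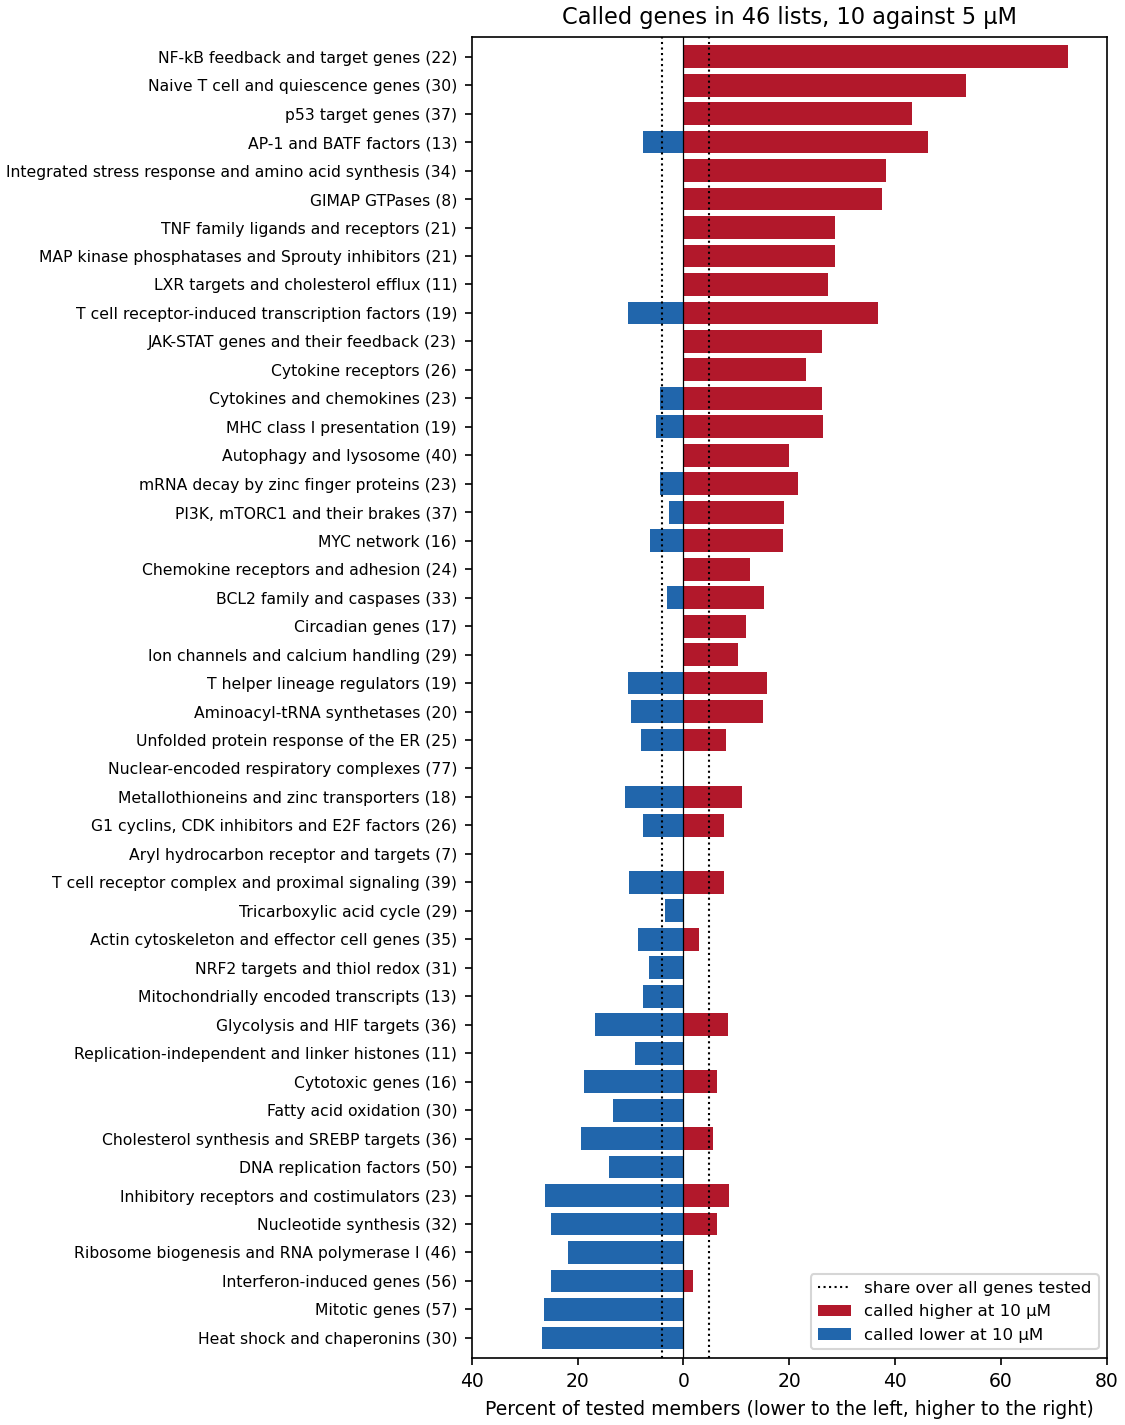
Bars give the percent of tested members called higher (red, to the right) and called lower (blue, to the left) at 10 against 5 μM in 46 lists, with the number tested in brackets, and dotted lines give the shares over all genes tested (4.92% higher and 4.09% lower). The NF-κB list stands at the top with 72.7% called, and the mitotic, interferon and heat shock lists stand at the lower end with more than 20% called lower.

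Across the 47 lists, 1252 genes were tested and 22.3% were called, 161 higher and 118 lower, against 9.0% of all genes. Listed genes were also more abundant, with a median log2 CPM of 6.33 against 4.90 over all genes tested, and the share called rose with level as given above. The part of level in these shares was not tested. Of the 183 named genes that were called, 45 lost the call in at least 1 of 19 alternatives (a test against a fold of 1.2 aside), 29 of them without the 2 doubtful libraries. Nars and G6pdx lost it in 15, Cst7 and Cdc25a in 14, Farsb in 13, Atf6 in 12, and Cd69, Dars, Cpt1a and Rbl1 in 11. The 16 that lost it in other alternatives were Zfp750, Orai2, Me2, Myc, Mxd1, Acsl4, Vegfa, Lag3, Lgals1, Erap1, mt-Nd1, Il21r, Ahnak, Edem2, Ldha and Farsb.

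Genes that the study also measured by RT-qPCR were read here as well. There were 13 such genes among those tested. The study measured Tnf, Ccl3, Ccl5 and Ifng in ventricular tissue of mice, not in cultured T cells. It measured Ndufc1, Nubpl, Sdhb, Aco1, Idh1, Cox18, Atp5k and Etfb in CD4+ T cells at 0, 5 and 10 μM. The values here set 10 against 5 μM in cultured CD4+ T cells, so they are no counterpart of the heart measurements. Tnf was called higher and Ccl3 lower, as described above. Ifng, at 3.20, 2.20 and 1.92 CPM at 5 μM and 3.21, 2.18 and 2.66 CPM at 10 μM, and Ccl5, at 2.72, 4.39 and 2.62 CPM at 5 μM and 2.51, 3.28 and 3.43 CPM at 10 μM, had low levels and overlapping groups, with log2 fold changes of 0.14 and -0.09, and were not called. The other genes were not called and had log2 fold changes of -0.18 (Ndufc1), -0.12 (Nubpl), -0.07 (Sdhb), -0.09 (Aco1), 0.07 (Idh1), -0.08 (Cox18), -0.06 (Atp5k) and -0.01 (Etfb). The reference gene Gapdh read 2141, 2147 and 2109 CPM at 5 μM and 2119.9, 2018 and 2078 CPM at 10 μM (-0.04, not called).

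Some called genes that mark other tissues rested on a single library. Scgb1a1, a secretory protein of airway cells, was at 3.48, 2.68 and 3.53 CPM at 5 μM and 37.2, 3.52 and 2.84 CPM at 10 μM, so that a single 10 μM library carried its log2 fold change of 2.16. Sftpc, a surfactant protein, was at 1.91, 1.5 and 1.66 CPM at 5 μM and 22, 2.48 and 1.26 CPM at 10 μM, and Hbb-bs, a beta globin, at 0.525, 0.447 and 0.504 CPM at 5 μM and 8.98, 0.496 and 0.542 CPM at 10 μM. The same library stood alone in both. Alb, the liver's serum albumin, was at 1.62, 15.4 and 1.11 CPM at 5 μM and 1.25, 1.39 and 1.04 CPM at 10 μM, with 5 μM replicate 2 alone high. Scgb1a1, Sftpc, Hbb-bs and Alb had log2 fold changes of -0.14, 0.05, 0.01 and -0.18 without the 2 libraries, and none was called. Of the 42 called genes past 1.5-fold, 19 were called without them. None of the 24 genes named above as the 12 largest rises and 12 largest falls lost its call without these 2 libraries, since their choice required it.

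**Figure D5:**
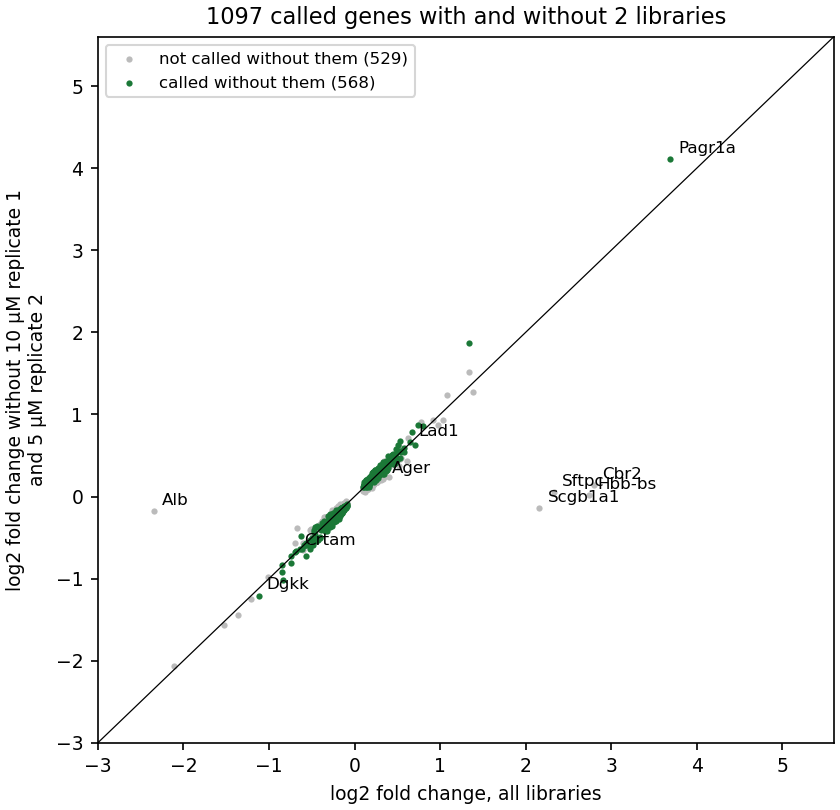
For the 1097 called genes, the log2 fold change with all libraries is plotted against that without 10 μM replicate 1 and 5 μM replicate 2, in green where the gene was called again (568) and in grey where it was not (529), with the line of equality. Nearly all genes lie along the line, whereas Hbb-bs, Sftpc, Scgb1a1, Cbr2 and Alb drop to about 0.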

How the data were processed

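RNA-seq was measured in CD4+ T cells at 0, 5 and 10 μM acacetin, 3 libraries each. The authors deposited estimated counts per gene (24.1% of values not whole), made with HISAT2 and StringTie per their methods. The submitters' notes name build GRCm39, and which counting step and annotation followed is not given in the sources used here.

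Estimated counts were rounded to whole numbers. Where entries shared a symbol (70 symbols, 964 entries), the most abundant carried it. Genes passing filterByExpr were scaled by TMM and fitted in edgeR 4.0.16 (R 4.3.3) with concentration as the group over all 9 libraries. The contrast of 10 minus 5 μM was tested by the two-sided quasi-likelihood F-test with Benjamini-Hochberg adjustment over 12185 genes. The study used DESeq2, tried here (1.42.0) as an alternative. The methods were tested on simulated data. SE is the absolute log2 fold change over the root of F.

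Members and lists were chosen with earlier results of these data known. Named genes were the 12 largest rises and 12 largest falls among called genes with a mean log2 CPM of 3 or more, no overlap, and a call kept without the 2 libraries holding traces of other tissues. Added to these were the 10 smallest adjusted p-values, up to 4 called members of each list by adjusted p with members called against the majority, and the study's RT-qPCR genes. Where all called members of a list are named, this goes beyond the rule, as do the genes resting on other tissues.

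Alternatives were other scaling (RLE, library totals), filters, samples, DESeq2, thinning to equal depth, a replicate block, a test against a fold of 1.2, and each library left out. At 19664981 to 24410715 counts per library, counting error adds to the spread between replicates and weighs most in rare genes. Replicate numbers were not used to pair libraries in the main fit, and a replicate block was an alternative. Same-numbered deviations correlated weakly, at 0.0507, 0.0871 and 0.0304, which leaves a pairing unsettled.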

Additional observations from a re-analysis of the deposited data

How the results depend on the processing

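The main counts were 599 genes higher and 498 lower, and 20 and 22 past 1.5-fold. RLE factors, library totals, at least 10 counts in every library, and thinning kept each count within 1.5 times the main one, and library totals gave 509 higher and 590 lower. With no filter 46 higher and 67 lower genes passed 1.5-fold. With the 6 libraries alone 11 higher genes passed it. DESeq2 on the 6 libraries called 300 genes lower, with 10 higher and 11 lower past 1.5-fold, and DESeq2 on all 9 gave 8 and 12 past 1.5-fold. Without 10 μM replicate 1 and 5 μM replicate 2 together, 386 were higher and 291 lower. A test against a fold of 1.2 called 9 higher and 12 lower, of which 4 and 6 had a fold past 1.5. The cause of these shifts was not tested beyond the changes in samples, filter or threshold themselves.

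With single libraries left out, 369 to 765 genes were called higher and 248 to 702 lower, and 12 to 30 and 17 to 29 passed 1.5-fold. Totals were 716, 733 and 617 without 5 μM replicates 1, 2 and 3, and 909, 1467 and 719 without 10 μM replicates 1, 2 and 3. The replicate block gave 552 higher and 442 lower. Whether the numbers pair the libraries was not settled. Same-numbered deviations correlated at 0.0507, 0.0871 and 0.0304, and differently numbered ones at -0.089 to 0.0407. The highest of these, 0.0407, was 10 μM replicate 3 with 5 μM replicate 1. Of 183 called named genes, 138 were called under all 19 alternatives other than the test against a fold of 1.2, and none changed sign in these. The medians of 2 of 47 lists, ion channels and T cell receptor signaling, changed sign with library totals. Separation of the groups gave exact p = 0.2 on the 500 genes of highest variance and 0.1 otherwise.

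Depth limits small folds in rare transcripts, of which 0.84% were called under a mean log2 CPM of 1. With 3 libraries a group, the exact permutation test of separation cannot go below p = 0.1.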

Other observations

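Low-abundance genes held the largest folds among calls that do not rest on traces of other tissues. They were chosen after their values were seen. Dgkk, a diacylglycerol kinase, was measured at 4.29, 3.21 and 4.59 CPM at 5 μM and 1.66, 2.23 and 1.62 CPM at 10 μM, without overlap and with a log2 fold change of -1.12 ± 0.18 (SE, edgeR adjusted p = 5.1e-04). Ptpn5, a tyrosine phosphatase known from neurons, was at 6.53, 7.93 and 7.82 CPM at 5 μM and 4.32, 4.17 and 3.88 CPM at 10 μM (-0.85 ± 0.11 SE, edgeR adjusted p = 9.5e-05), and Lancl3 at 7.82, 7.03 and 6.55 CPM at 5 μM and 4.26, 3.47 and 4.11 CPM at 10 μM (-0.85 ± 0.12 SE, edgeR adjusted p = 1.3e-04). All 3 were lower in every 10 μM library and were called without 10 μM replicate 1 and 5 μM replicate 2. On the other side, Dusp8, a phosphatase of JNK and p38, was at 5.72, 6.71 and 5.50 CPM at 5 μM and 9.53, 10.3 and 10.2 CPM at 10 μM (0.74 ± 0.11 SE, edgeR adjusted p = 3.5e-04) and the noncoding RNA Mirt1 at 4.87, 5.00 and 4.74 CPM at 5 μM and 7.93, 9.08 and 8.39 CPM at 10 μM (0.80 ± 0.12 SE, edgeR adjusted p = 2.2e-04). Ryr2, a calcium release channel best known from heart muscle, was at 0.382, 0.772 and 0.454 CPM at 5 μM and 1.10, 1.39 and 1.67 CPM at 10 μM (1.34 ± 0.34 SE, edgeR adjusted p = 0.016), with no overlap between the groups.

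Pagr1a, a partner of histone methyltransferase complexes, had the largest log2 fold change of any called gene, 3.69 ± 0.67 (SE, edgeR adjusted p = 0.0017), with 1.24, 0.772 and 0.706 CPM at 5 μM and 0.903, 23.3 and 11 CPM at 10 μM. The replicates at 10 μM did not share this level: replicate 1 lay within the range of the 5 μM libraries.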
